A study of Mus musculus with 30 samples.

Results

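The insulin-like growth factor (IGF) axis was followed in mouse embryonic fibroblasts through 10 genes: the ligands Igf1 and Igf2, the receptors Igf1r and Igf2r, and the binding proteins Igfbp2, Igfbp3, Igfbp4, Igfbp5, Igfbp6 and Igfbp7. Each was read from the probe set with a single gene symbol that had the highest mean over all 30 arrays, and its other probe sets served as a check. All 10 were found among the 18194 genes named on the array, and all 10 were among the 12675 genes that passed the filter on low signal and were tested.

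Every cell carried the p53 LSL/LSL genotype on a C57BL/6 x 129SvJ background, in which p53 stays off until Cre recombinase removes a stop cassette, and was cultured from mid-gestation embryos. In the time course, cells received AdenoCRE, which restores p53, or AdenoGFP, the control virus, for 24 h, and then 500 nM doxorubicin, a DNA-damaging drug, for 1, 3, 6 or 9 h, with untreated cells as 0 h. There was 1 array for each virus and time. No group received Cre without restorable p53, so Cre itself and p53 restoration cannot be told apart. In the 2 siRNA experiments all cells, controls included, had received AdenoCRE for 24 h, then an siRNA for 24 h, then 100 nM doxorubicin for 13 h. The lincP21KD experiment held p53 siRNA (3 arrays), siRNA against lincP21, the p53-induced noncoding RNA lincRNA-p21 (3 arrays), and a non-targeting siRNA pool (2 arrays). The hnRNPKKD experiment held p53 siRNA, lincP21 siRNA, siRNA against hnRNPK, an RNA-binding protein that partners lincRNA-p21, and the non-targeting pool (3 arrays each). The labels do not say that arrays of a group came from separate cultures, so siRNA p-values measure the spread between these arrays. In the time course, with no replicate arrays, p-values for the virus measure how its difference varied between the times. Any real change of that difference with time is part of this spread. Those for slopes measure the scatter about the lines.

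IGF-I and IGF-II are secreted growth factors that signal through the IGF-I receptor, a tyrosine kinase that activates the PI3K-AKT and MAP kinase pathways. The IGF-II receptor, also the cation-independent mannose 6-phosphate receptor, takes IGF-II into the cell for degradation and carries no kinase. IGF binding proteins hold the ligands outside the cell, prolong their life, keep them from the receptor or release them after cleavage by proteases, and fibroblasts of the embryo are a source of both ligands and binding proteins.

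Values are log2 signals, 1 unit being a doubling, and are not comparable between genes or between the 3 experiments, whose array medians differed (4.976 to 5.032 in the time course, 5.546 to 5.656 in lincP21KD and 4.832 to 4.914 in hnRNPKKD). Over the tested genes alone, the AdenoGFP array at 6 h stood apart in the time course, with a median of 8.016 where the other arrays had 8.197 to 8.332. A gene is called higher or lower at an adjusted p under 0.05 in limma, with Benjamini-Hochberg adjustment over all 12675 genes. AdenoCRE, p53 siRNA and hnRNPK siRNA showed in their target genes. Cdkn1a, the p53 target that encodes p21, was 3.85 ± 0.15 (SE) log2 higher with AdenoCRE (adjusted p = 3.5e-05), and with p53 siRNA it was lower by -2.07 log2 in lincP21KD (adjusted p = 4.91e-06) and -2.64 in hnRNPKKD (adjusted p = 4.39e-07). Hnrnpk changed by -3.51 ± 0.35 with its siRNA (adjusted p = 2.12e-05), with 8.38, 8.34 and 9.94 in the hnRNPK siRNA arrays against 12.68, 12.03 and 12.47 in the controls. The p53 and lincRNA-p21 transcripts were not analysed here, so the knockdown by lincP21 siRNA was not checked. Among marker lists, 11 of 11 fibroblast genes lay above the signal filter, and so did 5 of 8 macrophage (Cd14 and Cd68 the highest, while Ptprc, Adgre1 and Itgam lay below), 5 of 8 epithelial (Krt19 and Epcam the highest, while Cdh1, Krt14 and Cldn4 lay below), 5 of 6 chondrocyte, 4 of 8 skeletal muscle and 1 of 7 endothelial markers. Of 4 adipocyte markers read, Fabp4 and Pparg lay above it and Adipoq and Lep below, and of 5 liver markers read, 1 lay above. In bulk RNA, a change in the share of a cell type and a change in RNA per cell cannot be told apart.

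After the mean of each experiment was taken off, the binding proteins Igfbp3, Igfbp5 and Igfbp4 varied most among the 10 genes, with SDs of 0.69, 0.66 and 0.43 log2 that lay at the 98.1, 97.7 and 89.3 percentiles of all tested genes. Igf1 varied least (SD 0.16, percentile 19.5). The 250 bases before the start of each of these binding protein genes are shown because these 3 genes varied most, and 1 of the 4 Igf2 windows because it held the sole match to the p53 half-site among the 14 windows of the 10 genes. Sequences are from RefSeq on build GRCm38.p6, 5′ to 3′ on the gene's strand, and capitals mark motif matches.
Igfbp3, chr11:7213924-7214173, minus strand: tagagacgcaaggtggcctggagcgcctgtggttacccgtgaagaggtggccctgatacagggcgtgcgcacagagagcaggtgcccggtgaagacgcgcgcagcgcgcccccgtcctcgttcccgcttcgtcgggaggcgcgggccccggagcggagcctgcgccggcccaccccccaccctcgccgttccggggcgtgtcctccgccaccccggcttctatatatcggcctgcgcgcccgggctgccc
Igfbp4, chr11:99040994-99041243, plus strand: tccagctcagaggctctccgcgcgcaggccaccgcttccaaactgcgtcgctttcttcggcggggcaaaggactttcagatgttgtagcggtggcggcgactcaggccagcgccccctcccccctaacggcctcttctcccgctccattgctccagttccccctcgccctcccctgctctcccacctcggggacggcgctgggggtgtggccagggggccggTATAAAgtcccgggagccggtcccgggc
Igfbp5, chr1:72874866-72875115, minus strand: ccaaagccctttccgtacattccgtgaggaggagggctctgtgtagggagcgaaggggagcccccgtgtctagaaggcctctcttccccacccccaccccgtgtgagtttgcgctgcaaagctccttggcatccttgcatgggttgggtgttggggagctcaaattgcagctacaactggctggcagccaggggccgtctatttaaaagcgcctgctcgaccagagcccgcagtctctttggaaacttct
Igf2, chr7:142657497-142657746, minus strand: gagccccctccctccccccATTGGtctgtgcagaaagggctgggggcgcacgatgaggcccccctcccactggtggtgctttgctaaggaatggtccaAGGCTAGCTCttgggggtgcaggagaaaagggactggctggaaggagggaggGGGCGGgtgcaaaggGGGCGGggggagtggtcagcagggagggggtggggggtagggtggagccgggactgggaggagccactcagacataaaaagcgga

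The windows were searched on both strands for the GC box, spelled GGGCGG, the box named for its letters CCAAT, the TATA box, spelled TATAAA, and the p53 half-site, and no match shared a base with another. Igfbp4 had a TATA box 28 to 23 bases before its start. The Igf2 window had a CCAAT box on the opposite strand 231 to 227 bases, a p53 half-site 152 to 143 bases and 2 GC boxes 100 to 95 and 85 to 80 bases before the start. Neither the Igfbp3 nor the Igfbp5 window held any of the motifs. Of all 32851 windows, 32.7% held the GC box, 33.8% the CCAAT box, 12.4% the TATA box and 7.1% the p53 half-site, against 6, 3, 2 and 1 of the 14 windows of the axis. A match is a description of letters and not of a bound site. GC content was 73.2% for Igfbp3, 69.2% for Igfbp4, 58.8% for Igfbp5 and 66.0% for this Igf2 window. Igfbp5 is the neighbour of Igfbp2 on chromosome 1, and Igfbp3 that of Igfbp1 on chromosome 11.

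Against AdenoGFP, AdenoCRE lowered 4 binding proteins and raised 1, while neither ligand and neither receptor was called. Igfbp3, the main carrier of IGFs in serum, fell 2.73-fold, Igfbp5, a binding protein that also attaches to matrix, fell 2.38-fold, and Igfbp4, an inhibitor of IGF action that is cleaved by PAPP-A, fell 1.84-fold. Igfbp6, which prefers IGF-II, fell 1.40-fold, and Igfbp7, a secreted protein with weak IGF binding, rose 1.40-fold. Of all tested genes, 12.9% were higher and 6.24% lower with AdenoCRE. The median change of the 10 genes was -0.20 log2, beside 0.04 over all tested genes.

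**Figure D1:**
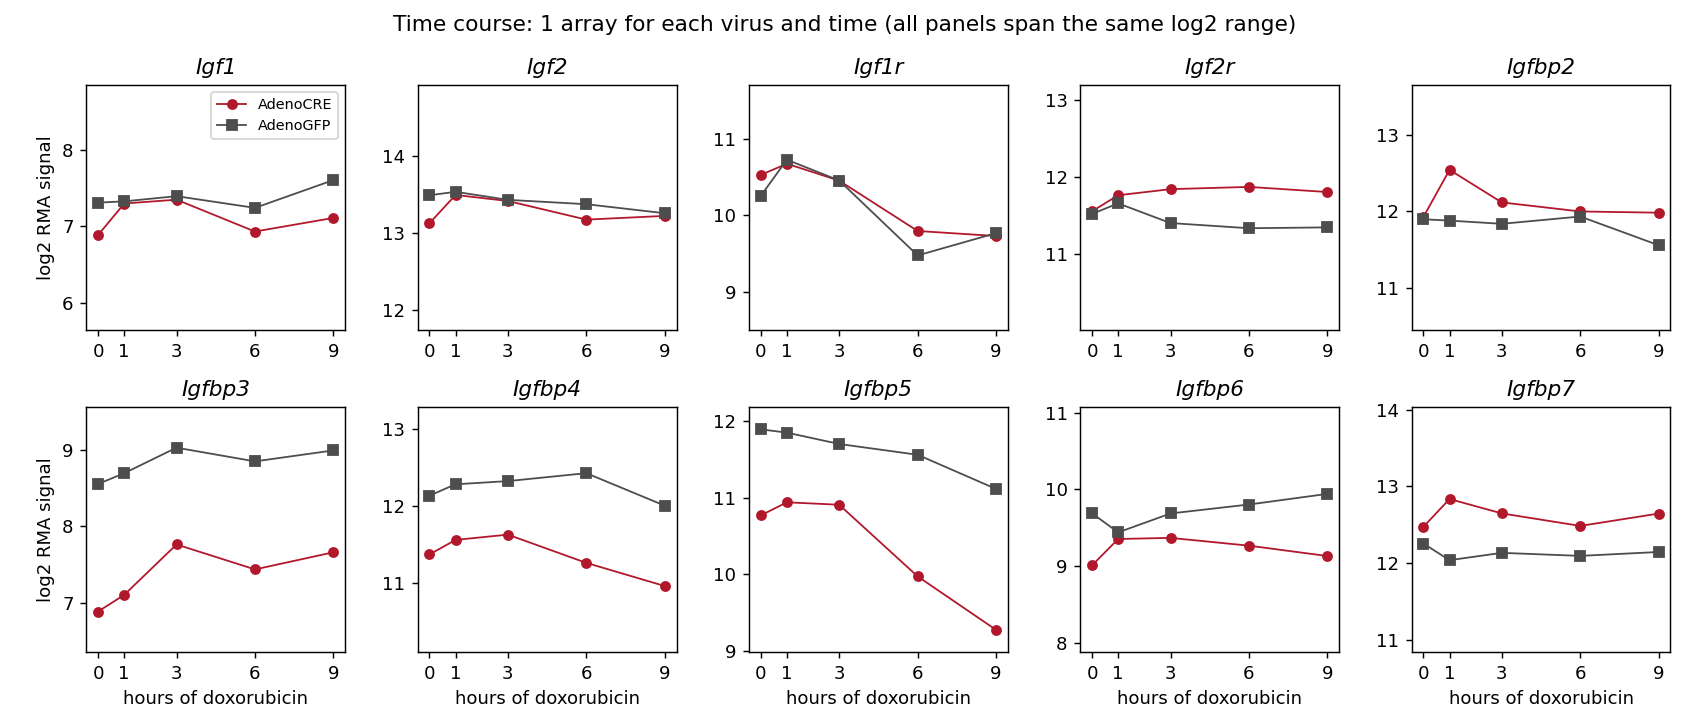
Log2 signal of the 10 genes (vertical axis) against hours of doxorubicin (horizontal axis) in AdenoCRE cells (red circles) and AdenoGFP cells (grey squares), 1 array at each point, with every panel spanning the same range. Igfbp3, Igfbp4, Igfbp5 and Igfbp6 lay below AdenoGFP at each of the 5 times and Igfbp7 above it, while Igf1r, at 9.73 and 9.77 after 9 h, differed by -0.05 to 0.32 between the viruses over the 5 times.

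Among the ligands, Igf2 had 13.12, 13.495, 13.42, 13.17 and 13.22 at 0, 1, 3, 6 and 9 h in AdenoCRE cells, against 13.49, 13.54, 13.43, 13.37 and 13.26 in AdenoGFP cells. These ranges overlapped, and the difference was -0.13 ± 0.09 log2 (SE, 5 pairs; adjusted p = 0.33). Igf1 differed by -0.26 ± 0.10 (adjusted p = 0.106), with AdenoCRE the lower in 5 of 5 pairs by between -0.49 and -0.03. The ligands' other probe sets had larger differences, -0.55 for Igf2 and -0.36 to -0.76 for Igf1, and with all probe sets of a gene averaged both ligands were called lower (Igf1 -0.53, adjusted p = 0.0272; Igf2 -0.34, adjusted p = 0.0168).

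Of the receptors, Igf2r had 11.55, 11.76, 11.84, 11.87 and 11.81 in AdenoCRE cells and 11.52, 11.66, 11.40, 11.33 and 11.34 in AdenoGFP cells. The 2 viruses were within 0.11 of each other at 0 and 1 h and 0.44 to 0.54 apart from 3 h on, with an average difference of 0.32 ± 0.10 that was not called (adjusted p = 0.0649). It was called with probe sets averaged (0.38, adjusted p = 0.0288), with trend and robust moderation (0.32, adjusted p = 0.0217) and with array weights (0.34, adjusted p = 0.0225). Igf1r, the signalling receptor, differed by 0.10 ± 0.09 (adjusted p = 0.486).

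Igfbp3 had 6.89, 7.10, 7.76, 7.44 and 7.66 in AdenoCRE cells, against 8.55, 8.69, 9.02, 8.85 and 8.99 in AdenoGFP cells. The AdenoCRE arrays all lay below the AdenoGFP arrays, the closest pair being 1.26 apart, and the difference was -1.45 ± 0.09 (adjusted p = 0.000153). Its second probe set gave -1.21. Igfbp4 had 11.37, 11.56, 11.63, 11.26 and 10.95 with AdenoCRE and 12.13, 12.28, 12.32, 12.43 and 12.0035 with AdenoGFP, again without overlap (-0.88 ± 0.10, adjusted p = 0.00165). All 5 other Igfbp4 probe sets were also lower, by -0.84 to -0.65.

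Igfbp5 had 10.77, 10.94, 10.91, 9.97 and 9.27 with AdenoCRE and 11.89, 11.85, 11.70, 11.56 and 11.11 with AdenoGFP. No AdenoCRE array reached the lowest AdenoGFP array, and the pairs stood 0.79 to 1.84 apart, with an average of -1.25 ± 0.16 (adjusted p = 0.00233). Its second probe set gave -0.93. Igfbp6 had 9.01, 9.35, 9.37, 9.27 and 9.13 with AdenoCRE and 9.69, 9.44, 9.69, 9.80 and 9.94 with AdenoGFP, and the groups, though close at 1 h, did not overlap (-0.49 ± 0.12, adjusted p = 0.0235). Without the pair at 0, 3, 6 or 9 h the Igfbp6 difference lay between -0.53 and -0.41 and was not called (adjusted p = 0.056 to 0.0685; 0.0107 to 0.0685 over all alternatives).

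Igfbp7 had 12.47, 12.83, 12.65, 12.48 and 12.64 with AdenoCRE and 12.25, 12.04, 12.13, 12.09 and 12.14 with AdenoGFP. All AdenoCRE arrays were above all AdenoGFP arrays, and the rise was 0.48 ± 0.10 (adjusted p = 0.0135). Without the 3 h pair it was 0.48 and not called (adjusted p = 0.0544; 0.00153 to 0.0544 over all alternatives). Its other probe sets gave 0.70 and 0.05. Igfbp2, an IGF-II binder of embryonic tissue, had 11.93 to 12.54 with AdenoCRE and 11.56 to 11.93 with AdenoGFP (0.29 ± 0.11, adjusted p = 0.101). Here and below, marker sums cover all listed markers on the array, also those below the filter, while calls cover the tested ones. Over the time course arrays the summed signal of 8 epithelial markers was 9.44 to 10.51 with AdenoCRE and 9.02 to 9.41 with AdenoGFP. Of the 5 tested, though, 1 was called higher and 2 lower, and their median change was -0.20. The sum of 4 adipocyte markers was 9.22 to 9.80 with AdenoCRE and 8.71 to 8.98 with AdenoGFP (of 2 tested, 1 higher, 0 lower). That of 8 macrophage markers was 8.47 to 9.39 and 8.34 to 8.67 (of 5 tested, 2 higher, 0 lower). That of 11 fibroblast markers, all tested, was 16.59 to 16.74 and 16.66 to 16.76 (0 higher, 3 lower). The part of these markers in the results was not tested. Without the 6 h pair, which holds the AdenoGFP array that stood apart, 4 genes of the axis were called with AdenoCRE: Igfbp3 at -1.46, Igfbp4 at -0.81, Igfbp5 at -1.17 and Igfbp7 at 0.51, and the Igfbp5 slope was -0.18 per hour (adjusted p = 0.0234).

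The slope on hours of doxorubicin was called for 1 of the 10 genes. In AdenoCRE cells Igfbp5 fell by 0.18 ± 0.03 log2 per hour (adjusted p = 0.00569), being between 10.77 and 10.94 up to 3 h and 9.27 at 9 h. Over all tested genes the slope was positive and called for 3.94% and negative and called for 1.45%. The Igfbp5 slope was not called without the 1 h pair (-0.18, adjusted p = 0.0528) or the 9 h pair (-0.14, adjusted p = 0.139), nor on a log2 scale of hours (-0.43 per unit, adjusted p = 0.0764), over a range of 0.00125 to 0.139 for all alternatives. In AdenoGFP cells none of the 10 slopes was called by limma, 2 had an unadjusted p under 0.05 (Igf1r -0.10 and Igfbp5 -0.08 per hour, adjusted p = 0.284 for each), and with probe sets averaged, array weights or trend moderation the count stayed at 0. Of all tested genes, 0.00789% rose and 0% fell with time in AdenoGFP cells. Igf1r had 10.53 to 10.67 in the first 2 AdenoCRE arrays and 9.73 at 9 h, a slope of -0.11 ± 0.03 per hour (adjusted p = 0.101). Its other probe sets gave slopes of -0.11 to -0.04 in AdenoCRE cells. With probe sets averaged the AdenoCRE slope of Igf1r was called (-0.08 per hour, adjusted p = 0.02). The slopes of the 2 viruses differed by -0.10 ± 0.04 per hour for Igfbp5 (adjusted p = 0.479), and for no gene of the axis was the difference called by limma (1 had an unadjusted p under 0.05), where 0.181% of all genes had a higher and 0% a lower slope with AdenoCRE.

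Silencing p53 in cells with restored p53 raised 6 of the 10 genes and lowered 0 in the lincP21KD experiment. The ligand Igf2 rose 1.98-fold, and the binding proteins Igfbp3 (2.22-fold), Igfbp4 (1.86-fold), Igfbp2 (1.73-fold), Igfbp5 (1.67-fold) and Igfbp6 (1.43-fold) rose with it. Of all tested genes, 7.01% were higher and 5.74% lower. The median of the 10 genes was 0.63 log2, beside 0.02 over all genes.

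**Figure D2:**
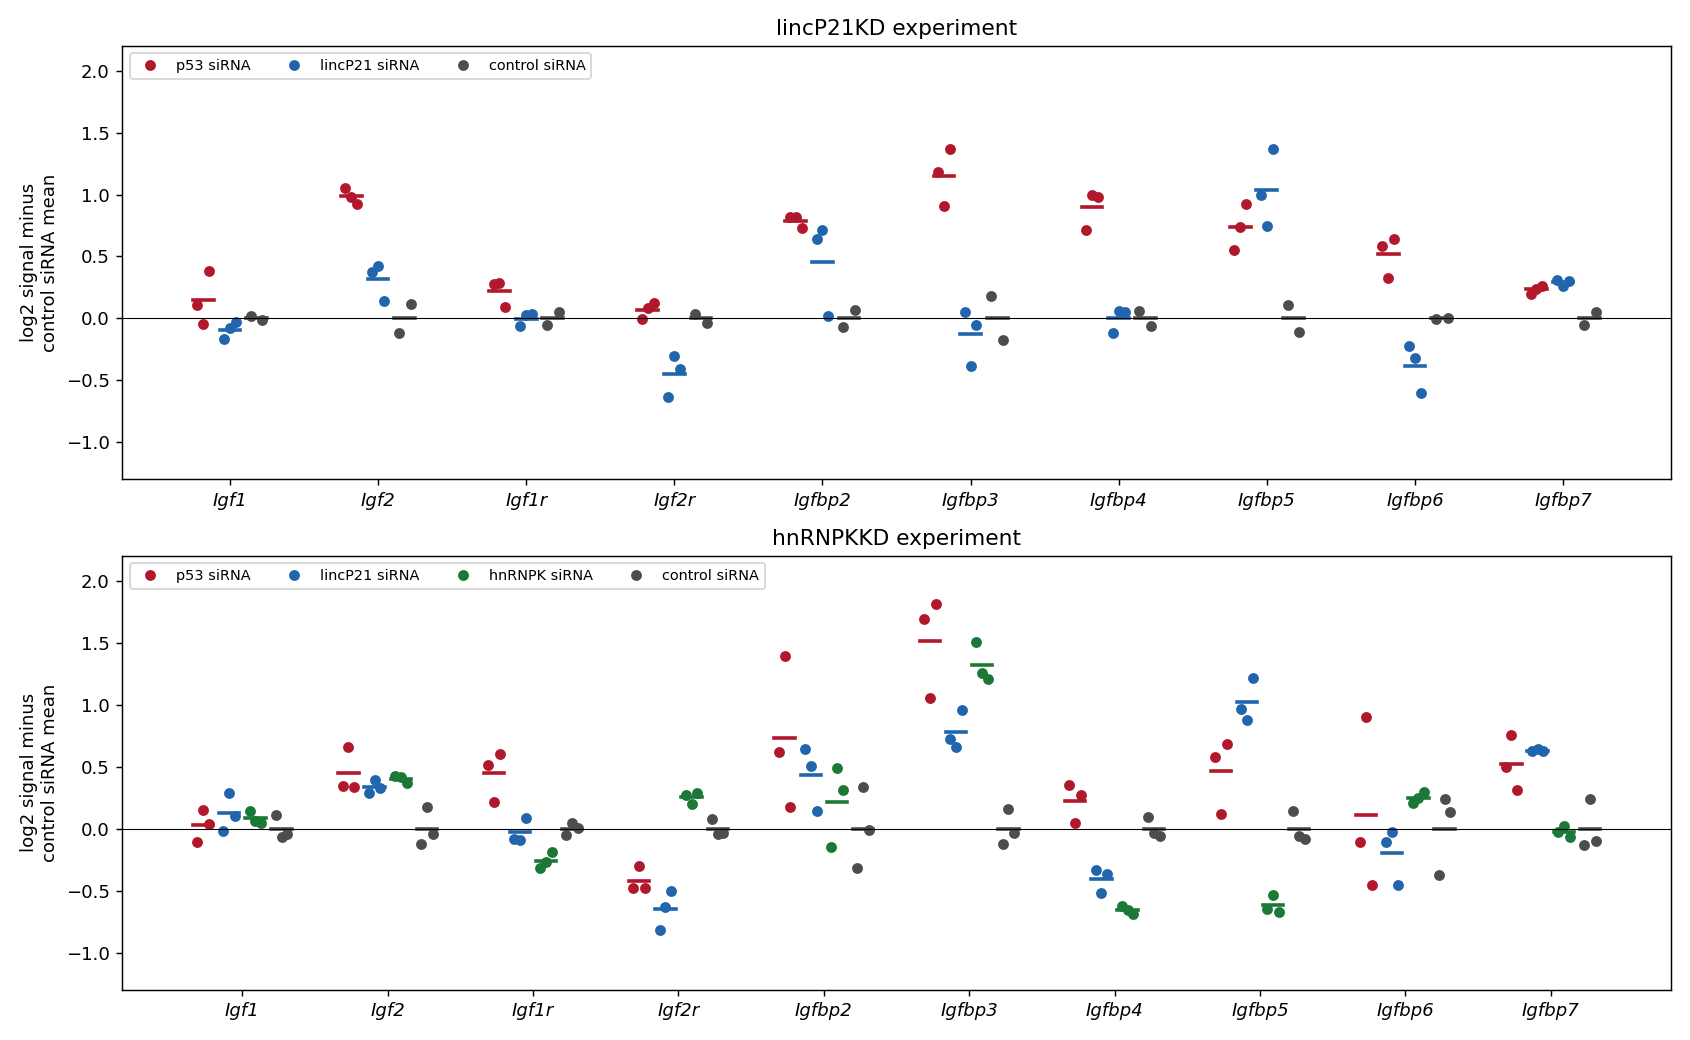
Log2 signal of each array minus the mean of the control siRNA arrays of its experiment (vertical axis) for the 10 genes (horizontal axis), in the lincP21KD experiment (top) and the hnRNPKKD experiment (bottom), with p53 siRNA in red, lincP21 siRNA in blue, hnRNPK siRNA in green and control siRNA in grey; points are arrays and bars their means. Igfbp3 was above control by 1.15 and 1.52 log2 with p53 siRNA, and Igfbp5 by 1.03 and 1.02 with lincP21 siRNA, in the upper and lower plot. Each gene is shown by the probe set used, and the second Igfbp5 probe set gave smaller values with lincP21 siRNA.

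Igf2 had 9.48, 9.40 and 9.35 in the p53 siRNA arrays, against 8.30 and 8.54 in the controls. The groups did not overlap and the difference was 0.99 ± 0.11 (SE; adjusted p = 0.000338), but the second Igf2 probe set gave 0.17 ± 0.12. Igf1 (0.15 ± 0.12, adjusted p = 0.469), Igf1r (0.22 ± 0.09, adjusted p = 0.138) and Igf2r (0.07 ± 0.10, adjusted p = 0.736) were not called. The other Igf1 probe sets gave 0.30 to 0.43.

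Igfbp3 had 6.88, 6.60 and 7.06 with p53 siRNA and 5.87 and 5.52 in the controls. Its rise of 1.15 ± 0.17 (adjusted p = 0.00163) was larger than the spread within either group. Igfbp4 had 11.05, 11.33 and 11.32 with p53 siRNA and 10.40 and 10.28 in the controls (0.90 ± 0.10, adjusted p = 0.000508), and its 5 other probe sets gave 0.50 to 0.96. Igfbp2 had 9.13, 9.13 and 9.05 with p53 siRNA and 8.25 and 8.39 in the controls (0.79 ± 0.17, adjusted p = 0.0153). In each of these genes the lowest p53 siRNA array was above the higher control array.

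Igfbp5 had 7.41, 7.60 and 7.78 with p53 siRNA and 6.97 and 6.74 in the controls (0.74 ± 0.17, adjusted p = 0.018), and its second probe set gave 0.14 ± 0.10. Igfbp6 had 10.12, 9.85 and 10.17 with p53 siRNA and 9.52 and 9.54 in the controls (0.52 ± 0.13, adjusted p = 0.0238). Neither overlapped the controls. Igfbp7 had 12.27 to 12.33 with p53 siRNA and 12.01 and 12.12 in the controls, and missed the threshold (0.23 ± 0.07, adjusted p = 0.0649). With 2 control arrays, 3 of these calls rested on single libraries. The Igfbp2 call was lost without control 1 (0.72, adjusted p = 0.125) or control 2 (0.86, adjusted p = 0.0686), over a range of 0.00172 to 0.125 for all alternatives. That of Igfbp5 was lost without control 1 or 2 or p53 siRNA array 2 or 3 (0.63 to 0.85, adjusted p = 0.0511 to 0.155), and that of Igfbp6 without control 1 or 2 or p53 siRNA array 1 or 3 (0.45 to 0.52, adjusted p = 0.0671 to 0.138). Over all alternatives the adjusted p ran from 0.00531 to 0.155 for Igfbp5 and from 0.00508 to 0.138 for Igfbp6. The summed fibroblast markers were 16.59 to 16.65 with p53 siRNA and 16.46 to 16.51 in the controls, with 4 of 11 higher and 0 lower, the summed macrophage markers 8.97 to 9.08 and 9.53 to 9.55 (0 of 5 higher, 3 lower), the epithelial markers 9.47 to 9.52 and 9.36 to 9.42 (0 of 5 called), and the chondrocyte markers 8.27 to 8.33 and 8.34 to 8.46 (1 of 5 higher, 0 lower). The part of these markers in the result was not tested.

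In the hnRNPKKD experiment p53 siRNA raised 5 genes and lowered 1. Igfbp3 rose 2.86-fold, Igfbp7 1.44-fold, Igfbp5 1.38-fold, and the ligand Igf2 and the signalling receptor Igf1r 1.36-fold each, while the IGF-II clearance receptor Igf2r fell 1.34-fold. Of all tested genes, 19.3% were higher and 19.2% lower in this comparison, a background that the count has to be read against. The median of the 10 genes was 0.45 log2, beside -0.01 over all genes.

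Igf2 had 11.69, 12.01 and 11.69 with p53 siRNA, against 11.22, 11.52 and 11.30 in the controls, without overlap (0.45 ± 0.11, adjusted p = 0.00557), and its second probe set gave 0.43. Igf1r had 10.05, 9.75 and 10.14 with p53 siRNA and 9.48, 9.57 and 9.53 in the controls (0.45 ± 0.11, adjusted p = 0.00519). Igf2r had 10.53, 10.72 and 10.54 with p53 siRNA and 11.09, 10.97 and 10.98 in the controls (-0.42 ± 0.10, adjusted p = 0.0046). All p53 siRNA arrays stood above the controls for Igf1r and below them for Igf2r, whose second probe set gave -0.37.

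Igfbp3 had 9.05, 8.41 and 9.17 with p53 siRNA and 7.24, 7.51 and 7.32 in the controls (1.52 ± 0.17, adjusted p = 2.59e-05). The p53 siRNA array 2 was the lowest of its group and still above every control. Igfbp7 had 11.44, 11.69 and 11.25 with p53 siRNA and 10.80, 11.17 and 10.83 in the controls (0.52 ± 0.12, adjusted p = 0.00492). The lowest p53 siRNA array was above the highest control by a small margin, and the other probe sets gave 1.02 and -0.12. Igfbp5 had 9.08, 8.62 and 9.19 with p53 siRNA and 8.64, 8.44 and 8.41 in the controls, with overlap between p53 siRNA array 2 and control 1 (0.46 ± 0.14, adjusted p = 0.0218). The Igfbp5 call was lost without p53 siRNA array 1 or 3 or control 2 or 3 (0.35 to 0.43, adjusted p = 0.0644 to 0.0857; 1.3e-06 to 0.0857 over all alternatives).

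Igfbp2 had 5.98, 6.76 and 5.54 with p53 siRNA and 5.04, 5.70 and 5.35 in the controls (0.73 ± 0.28, adjusted p = 0.053). Igfbp4 (0.23 ± 0.10, adjusted p = 0.0896), Igfbp6 (0.11, adjusted p = 0.781) and Igf1 (0.03, adjusted p = 0.859) were not called either, and the 5 other Igfbp4 probe sets spread from -0.25 to 0.25. The other Igf1 probe sets gave 0.16 to 0.38, and with probe sets averaged Igf1 was called higher (0.21, adjusted p = 0.0306). The p53 siRNA array 2 kept more Cdkn1a (11.41) than arrays 1 and 3 (10.52 and 10.61), where the controls had 13.53, 13.43 and 13.51. Without it 7 of the 10 genes were called (6 higher and 1 lower), Igfbp4 being added at 0.32 (adjusted p = 0.0111), and Igfbp6 stood at -0.28 (adjusted p = 0.201). The summed fibroblast markers were 16.33 to 16.37 with p53 siRNA and 16.08 to 16.15 in the controls, with 7 of 11 higher and 1 lower, the macrophage markers 7.88 to 8.54 and 9.54 to 9.77 (0 of 5 higher, 2 lower), the epithelial markers 9.41 to 9.96 and 10.32 to 10.54 (0 of 5 higher, 2 lower), the adipocyte markers 8.59 to 9.67 and 10.00 to 10.05 (0 of 2 higher, 2 lower), and the chondrocyte markers 8.17 to 8.26 and 8.40 to 8.65 (1 of 5 higher, 1 lower). Endothelial markers had 7.10 to 7.13 with p53 siRNA and 6.88 to 7.07 in the controls (1 of 1 tested higher). Liver markers had 6.33 to 6.56 and 6.58 to 6.68 (1 of 1 tested lower). The part of all these markers was not tested.

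The time course and the siRNA experiments share no arrays. Of the 4 binding proteins lower with AdenoCRE, 4 were higher with p53 siRNA in lincP21KD and 2, Igfbp3 and Igfbp5, in hnRNPKKD. Over all genes, 232 of the 791 genes lower with AdenoCRE were higher with p53 siRNA in lincP21KD, 29.3% of the first list and 26.1% of the second, and 406 in hnRNPKKD, 51.3% and 16.6%. Igfbp7 was higher both with AdenoCRE and with p53 siRNA in hnRNPKKD, as were 190 of the 1636 genes higher with AdenoCRE (11.6% of that list and 7.76% of the other).

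**Figure D3:**
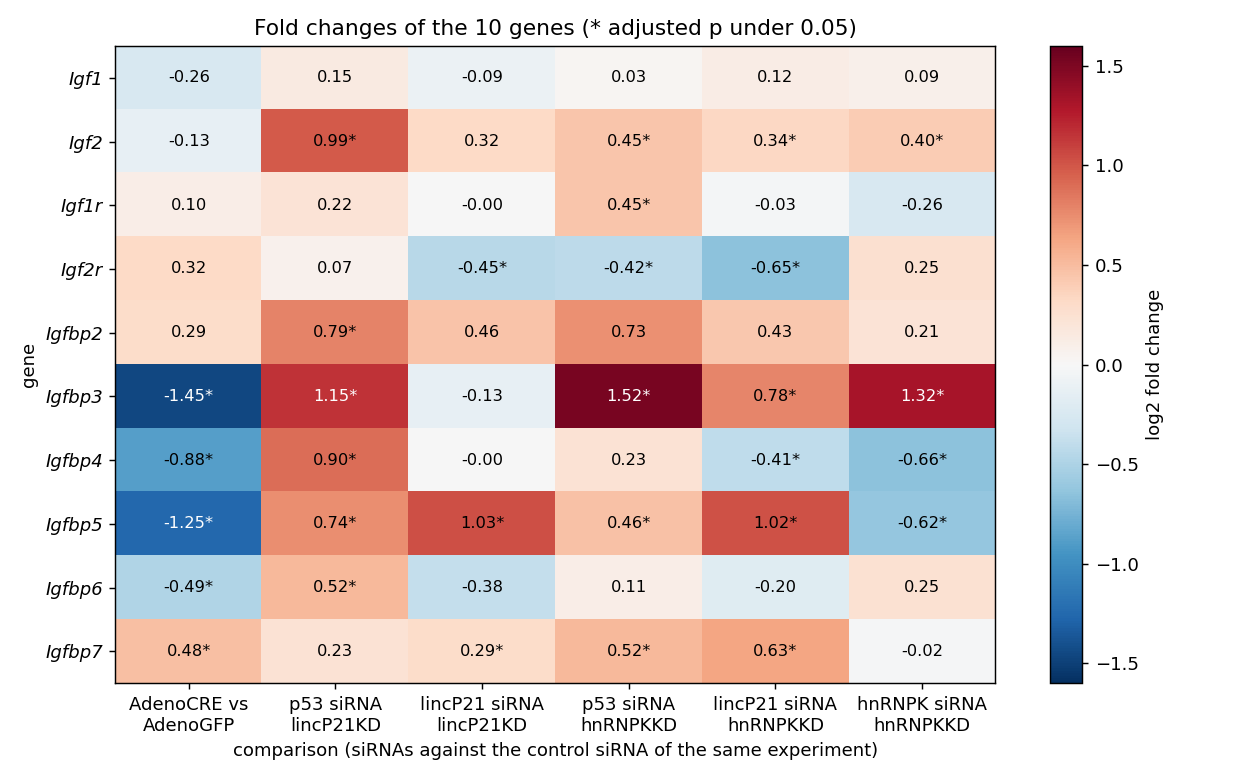
Log2 fold changes of the 10 genes (rows) in 6 comparisons (columns: AdenoCRE against AdenoGFP, then each siRNA against the control siRNA of its experiment), with red for higher, blue for lower and an asterisk for an adjusted p under 0.05. Igfbp3 runs from -1.45 with AdenoCRE to 1.52 with p53 siRNA in hnRNPKKD, and no Igf1 value is marked.

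By the probe sets used, the lincP21 siRNA raised Igfbp5 and Igfbp7 and lowered Igf2r in both siRNA experiments. In lincP21KD these 3 were the genes called, where 7.47% of all genes were higher and 4.39% lower. In hnRNPKKD, where 17.2% were higher and 11.8% lower, Igfbp3 and Igf2 were also higher and Igfbp4 lower, 6 of the 10 in all. The medians of the 10 genes were -0.00 log2 in lincP21KD and 0.23 in hnRNPKKD, beside 0.01 over all genes in each. Over all genes, those higher in both experiments made up 64.9% of the lincP21KD and 28.2% of the hnRNPKKD list, and those lower in both 59.5% and 22.1%.

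Igfbp5 had 7.85, 7.60 and 8.22 with lincP21 siRNA and 6.97 and 6.74 in the lincP21KD controls (1.03 ± 0.17, adjusted p = 0.00502), and 9.47, 9.38 and 9.71 with lincP21 siRNA and 8.64, 8.44 and 8.41 in the hnRNPKKD controls (1.02 ± 0.14, adjusted p = 0.000209). In both experiments all lincP21 siRNA arrays were above all controls, by fold changes of 2.05 and 2.03. The second Igfbp5 probe set, of lower signal, gave 0.02 ± 0.10 in lincP21KD and 0.24 ± 0.10 in hnRNPKKD. Whether Igfbp5 rose in lincP21KD, and by how much in hnRNPKKD, therefore depended on the probe set. In lincP21KD the call was lost without control 2 (0.92, adjusted p = 0.0531; 0.00131 to 0.0531 over all alternatives).

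Igfbp7 had 12.38, 12.33 and 12.37 with lincP21 siRNA and 12.01 and 12.12 in the lincP21KD controls (0.29 ± 0.07, adjusted p = 0.0294). In hnRNPKKD it had 11.56, 11.58 and 11.56 with lincP21 siRNA and 10.80, 11.17 and 10.83 in the controls (0.63 ± 0.12, adjusted p = 0.00205). The lincP21 siRNA arrays lay above the controls in both experiments. With 1 array left out, the lincP21KD call was lost without control 1 (0.24, adjusted p = 0.25), control 2 (0.34, adjusted p = 0.0878) or lincP21 siRNA array 1 (0.28, adjusted p = 0.0908), the range over all alternatives being 0.00516 to 0.25. In hnRNPKKD the Igfbp7 value was 0.31 and not called with probe sets averaged (adjusted p = 0.0686; 2.31e-05 to 0.0686 over all alternatives).

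Igf2r had 9.98, 10.31 and 10.22 with lincP21 siRNA and 10.66 and 10.58 in the lincP21KD controls (-0.45 ± 0.10, adjusted p = 0.0196). In hnRNPKKD it had 10.20, 10.38 and 10.51 with lincP21 siRNA and 11.09, 10.97 and 10.98 in the controls (-0.65 ± 0.10, adjusted p = 0.000344). The lincP21 siRNA arrays were below the controls in both, and the second Igf2r probe set gave -0.57 and -0.85. The lincP21KD call was lost without either control or without lincP21 siRNA array 1 (-0.49 to -0.36, adjusted p = 0.0519 to 0.157; 0.00659 to 0.157 over all alternatives).

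Igfbp3 had 8.08, 8.02 and 8.32 with lincP21 siRNA in hnRNPKKD, against 7.24, 7.51 and 7.32 in the controls (0.78 ± 0.17, adjusted p = 0.0048), and in lincP21KD 5.75, 5.31 and 5.64 against 5.87 and 5.52 (-0.13 ± 0.17, adjusted p = 0.68). The groups were apart in hnRNPKKD and overlapped in lincP21KD. Igfbp4 had 9.91, 9.73 and 9.88 with lincP21 siRNA in hnRNPKKD and 10.34, 10.21 and 10.18 in the controls (-0.41 ± 0.10, adjusted p = 0.00767), and its 5 other probe sets gave -0.48 to -0.26. In lincP21KD Igfbp4 stood at -0.00 ± 0.10 (adjusted p = 0.998).

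Igf2 had 11.64, 11.75 and 11.68 with lincP21 siRNA in hnRNPKKD and 11.22, 11.52 and 11.30 in the controls (0.34 ± 0.11, adjusted p = 0.0329). The groups did not overlap, and the second probe set gave 0.33, but the Igf2 call was lost without any 1 of the lincP21 siRNA arrays or without control 1 or 3 (0.27 to 0.36, adjusted p = 0.0624 to 0.119; 0.00193 to 0.119 over all alternatives). In lincP21KD Igf2 had 8.80, 8.85 and 8.57 with lincP21 siRNA and 8.30 and 8.54 in the controls (0.32 ± 0.11, adjusted p = 0.0886). Igf1, Igf1r, Igfbp2 and Igfbp6 were called in neither experiment, with changes of -0.38 to 0.46 in lincP21KD and -0.20 to 0.43 in hnRNPKKD. With lincP21 siRNA the summed fibroblast markers were 16.64 to 16.72 in lincP21KD, against 16.46 to 16.51 in its controls, and 16.35 to 16.37 in hnRNPKKD, against 16.08 to 16.15, with 4 and 6 of 11 higher and 0 and 1 lower. In lincP21KD the sums were 9.14 to 9.27 with lincP21 siRNA and 9.36 to 9.42 in the controls for epithelial markers (0 of 5 higher, 1 lower), 8.14 to 8.30 and 8.34 to 8.46 for chondrocyte markers (0 of 5 higher, 1 lower), and 8.15 to 8.51 and 8.53 to 8.55 for adipocyte markers (1 of 2 higher, 1 lower). In hnRNPKKD they were 9.48 to 9.68 with lincP21 siRNA and 10.00 to 10.05 in the controls for adipocyte markers (0 of 2 called), and 8.21 to 8.27 and 8.40 to 8.65 for chondrocyte markers (1 of 5 higher, 1 lower). The part of these markers was not tested.

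Silencing hnRNPK raised Igfbp3 2.50-fold and Igf2 1.32-fold and lowered Igfbp4 1.58-fold and Igfbp5 1.54-fold, 4 of the 10 genes, where 14.1% of all genes were higher and 12.8% lower. The median of the 10 genes was 0.15 log2, beside -0.00 over all genes. All these comparisons of the hnRNPKKD experiment share the same 3 control arrays.

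Igfbp3 had 8.86, 8.61 and 8.57 with hnRNPK siRNA and 7.24, 7.51 and 7.32 in the controls, more than 1 log2 unit between the nearest arrays (1.32 ± 0.17, adjusted p = 0.000141), and its second probe set gave 1.11. Igfbp4 had 9.62, 9.59 and 9.55 with hnRNPK siRNA and 10.34, 10.21 and 10.18 in the controls (-0.66 ± 0.10, adjusted p = 0.000349). All hnRNPK siRNA arrays were below the controls, and the 5 other Igfbp4 probe sets gave -0.68 to -0.37. Igfbp5 had 7.85, 7.97 and 7.82 with hnRNPK siRNA and 8.64, 8.44 and 8.41 in the controls (-0.62 ± 0.14, adjusted p = 0.00621). The groups did not overlap, but the second Igfbp5 probe set gave 0.15 ± 0.10, and the mean of both -0.23 was not called (adjusted p = 0.0657; 8.43e-05 to 0.0657 over all alternatives).

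Igf2 had 11.77, 11.76 and 11.72 with hnRNPK siRNA and 11.22, 11.52 and 11.30 in the controls (0.40 ± 0.11, adjusted p = 0.0148). The hnRNPK siRNA arrays were all higher, and the second probe set gave 0.35. The Igf2 call was lost without hnRNPK siRNA array 1 or 2 or control 1 or 3 (0.34 to 0.40, adjusted p = 0.0516 to 0.0637; 0.000225 to 0.0637 over all alternatives). Igf2r had 11.28, 11.22 and 11.30 with hnRNPK siRNA and 11.09, 10.97 and 10.98 in the controls (0.25 ± 0.10, adjusted p = 0.0764), and Igf1r had 9.21, 9.26 and 9.34 against 9.48, 9.57 and 9.53 (-0.26 ± 0.11, adjusted p = 0.0944). Both were apart from the controls without passing the test. Igf1, Igfbp2, Igfbp6 and Igfbp7 had changes of -0.02 to 0.25. The hnRNPK siRNA array 3 kept more Hnrnpk (9.94) than arrays 1 and 2, and without it the same number of genes, 2 higher and 2 lower, was called. The summed fibroblast markers were 16.02 to 16.11 with hnRNPK siRNA and 16.08 to 16.15 in the controls, with 1 of 11 higher and 3 lower. The adipocyte markers were 9.57 to 9.66 and 10.00 to 10.05 (0 of 2 called). Endothelial markers had 7.21 to 7.33 and 6.88 to 7.07, and liver markers 6.39 to 6.50 and 6.58 to 6.68 (0 of 1 tested called in each). The part of these markers was not tested.

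**Figure D4:**
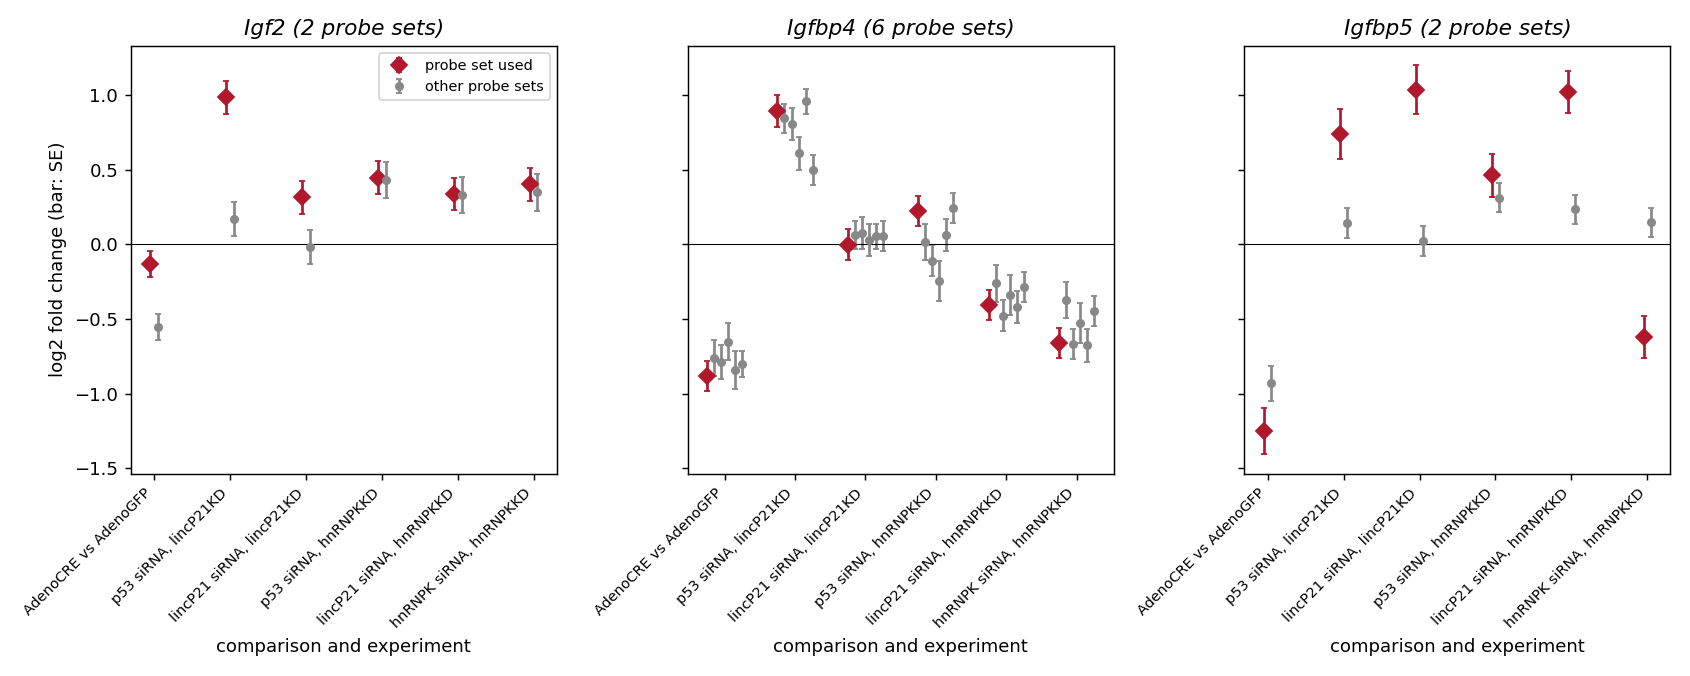
Log2 fold change with its standard error (vertical axis) in 6 comparisons (horizontal axis) for each probe set of Igf2, Igfbp4 and Igfbp5, the probe set used as a red diamond and the others as grey circles. The Igfbp4 probe sets have 1 sign in 4 of the 6 comparisons and lie about 0 in the other two, while the second Igfbp5 probe set reads 0.02 where the one used reads 1.03 (lincP21 siRNA, lincP21KD) and 0.15 where it reads -0.62 (hnRNPK siRNA).

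The effects of p53 siRNA and of lincP21 siRNA were each measured in both siRNA experiments, whose controls are separate arrays, and their difference was tested in a joint fit of the 20 siRNA arrays. For p53 siRNA, 3 genes had a lower effect in hnRNPKKD than in lincP21KD and 0 a higher one, where 7.35% of all genes were lower and 7.14% higher. Igfbp4 differed by -0.67 ± 0.15 (adjusted p = 0.00488), having effects of 0.23 in hnRNPKKD and 0.90 in lincP21KD. Igf2 differed by -0.54 ± 0.16 (adjusted p = 0.0283), with effects of 0.45 and 0.99, but its second probe set differed by 0.26 ± 0.18 in the other direction. Igf2r differed by -0.49 ± 0.14 (adjusted p = 0.0283), with effects of -0.42 and 0.07. The Igf2 call was lost without hnRNPKKD p53 siRNA array 1 or 3 or control 2, or without lincP21KD p53 siRNA array 1 or control 1 (-0.50 to -0.42, adjusted p = 0.0629 to 0.169; 5.58e-05 to 0.496 over all alternatives). With 1 array left out, the Igf2r call was lost without hnRNPKKD p53 siRNA array 1 or 3 or control 1, or without lincP21KD p53 siRNA array 2 or 3 or either control (-0.53 to -0.45, adjusted p = 0.0518 to 0.126; 0.000784 to 0.126 over all alternatives). For lincP21 siRNA, Igfbp3 had a higher effect in hnRNPKKD (0.78) than in lincP21KD (-0.13), a difference of 0.91 ± 0.26 (adjusted p = 0.0396). It was lost without lincP21 siRNA array 1 or 3 or control 1 or 3 of hnRNPKKD, or lincP21 siRNA array 2 or 3 or either control of lincP21KD (0.73 to 1.09, adjusted p = 0.0578 to 0.213; 0.00367 to 0.213 over all alternatives), and 0 genes of the axis had a lower one, where 4.63% of all genes were higher and 3.51% lower. By the probe sets used, Igf2, Igfbp3 and Igfbp5 rose with p53 siRNA in both experiments. These were 3 of the 6 genes called higher in lincP21KD and 3 of the 5 in hnRNPKKD, beside 67.9% and 24.6% for all genes. In lincP21KD the second probe sets of Igf2 and Igfbp5 gave smaller values. The Igfbp5 call was lost in each experiment with some single arrays left out.

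**Figure D5:**
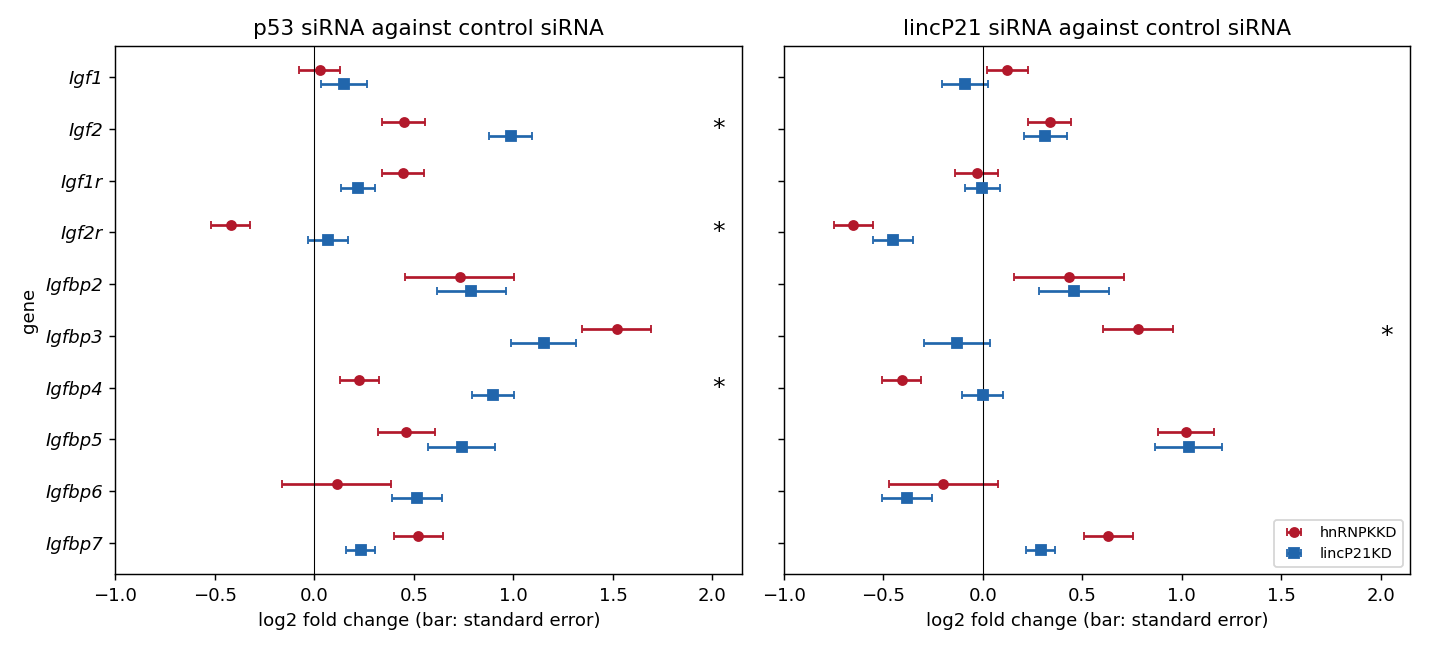
Log2 fold change with its standard error (horizontal axis) of the 10 genes (vertical axis) with p53 siRNA (left) and lincP21 siRNA (right) against control, in hnRNPKKD (red circles) and lincP21KD (blue squares); an asterisk marks an adjusted p under 0.05 for the difference between the experiments. The p53 siRNA effect on Igfbp4 was 0.23 in hnRNPKKD and 0.90 in lincP21KD, and the lincP21 siRNA effect on Igfbp3 was 0.78 and -0.13.

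The genes whose pattern over the 30 arrays was most like that of a binding protein, once the mean of each experiment was taken off, were Ednrb, Zc3hav1 and Ecrg4 for Igfbp3 (Pearson r = 0.85, 0.85 and 0.83), Mettl9, Gpt2 and Aldh1l2 for Igfbp5 (0.93, 0.89 and 0.87), and Capn6, Pdk1 and Lss for Igfbp4 (0.91, 0.86 and 0.85). These correlations describe the arrays, which share groups and scaling.

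Of the genes that carry the signal inside the cell, 44 of the 49 listed (insulin receptor family, adaptors, PI3K, AKT, mTOR and FOXO genes and the IGF2 mRNA-binding proteins) were named on the array and 42 were tested. With AdenoCRE 7 of the 42 rose (16.7%, beside 12.9% of all genes) and 1 fell (2.38%, beside 6.24%), with a median of 0.08 log2. Grb14, an adaptor that inhibits the insulin receptor, rose by 1.69 ± 0.09 (adjusted p = 0.00013), Foxo3, a transcription factor that AKT keeps out of the nucleus, by 1.02 ± 0.13 (adjusted p = 0.00272), and Pik3r3, a regulatory subunit of PI3K, by 0.87 ± 0.12 (adjusted p = 0.00349). Socs3, a cytokine signalling inhibitor, fell by 0.80 ± 0.15 (adjusted p = 0.0111). With p53 siRNA 3 rose (7.14%, beside 7.01% of all genes) and 2 fell (4.76%, beside 5.74%) in lincP21KD. In hnRNPKKD 13 rose (31%, beside 19.3%) and 8 fell (19%, beside 19.2%). Foxo3 fell by 0.59 ± 0.08 in lincP21KD (adjusted p = 0.00166) and by 0.87 ± 0.14 in hnRNPKKD (adjusted p = 0.000263), and Grb14 fell by 0.83 ± 0.11 in hnRNPKKD (adjusted p = 7.12e-05). Igf2bp3, an RNA-binding protein that binds Igf2 mRNA, rose by 0.95 ± 0.11 in hnRNPKKD (adjusted p = 1.84e-05).

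With lincP21 siRNA 3 of these 42 genes rose (7.14%, beside 7.47% of all genes) and 2 fell (4.76%, beside 4.39%) in lincP21KD, shares near those of all genes. In hnRNPKKD 11 rose (26.2%, beside 17.2%) and 5 fell (11.9%, beside 11.8%). Pik3r3 rose in both, by 0.80 ± 0.10 (adjusted p = 0.00145) and 1.36 ± 0.09 (adjusted p = 8.48e-07). Pik3cb, a catalytic subunit of PI3K, fell in both, by 0.57 ± 0.10 (adjusted p = 0.00812) and 0.82 ± 0.09 (adjusted p = 3.55e-05), though in lincP21KD its call was lost without either control (adjusted p up to 0.0705; 0.0024 to 0.0705 over all alternatives). Gsk3b, a kinase that AKT inhibits, fell by 0.68 ± 0.09 in lincP21KD (adjusted p = 0.00258), and Rptor, the mTORC1 scaffold, by 0.84 ± 0.09 in hnRNPKKD (adjusted p = 4.12e-05). With hnRNPK siRNA 7 rose (16.7%, beside 14.1%) and 7 fell (16.7%, beside 12.8%): Socs2, an inhibitor of growth hormone signalling, rose by 1.19 ± 0.11 (adjusted p = 9.55e-06), while Pik3ca, a catalytic PI3K subunit, fell by 0.88 ± 0.15 (adjusted p = 0.000723) and Irs1, the docking protein of the IGF-I receptor, by 0.66 ± 0.13 (adjusted p = 0.00187). The list's medians were 0.05, 0.06, 0.13, 0.07 and 0.01 log2 in the 5 siRNA comparisons, p53 and lincP21 in lincP21KD first, then p53, lincP21 and hnRNPK in hnRNPKKD.

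Binding proteins are cleaved by secreted and lysosomal proteases, of which, with their inhibitors, 23 of 24 listed genes were named and 21 tested. With AdenoCRE 8 rose (38.1%, beside 12.9% of all genes) and 3 fell (14.3%, beside 6.24%), with a median of -0.04 log2: Plau, the urokinase plasminogen activator, rose by 1.03 ± 0.15 (adjusted p = 0.00434), Ctsd, a lysosomal protease, by 0.87 ± 0.11 (adjusted p = 0.00266), and Mmp2, a gelatinase, by 0.69 ± 0.09 (adjusted p = 0.00266). With p53 siRNA 2 rose (9.52%, beside 7.01%) and 0 fell (beside 5.74%) in lincP21KD, Adam9 by 0.66 ± 0.10 (adjusted p = 0.00178) and Adam12 by 0.67 ± 0.13 (adjusted p = 0.00732), the second of which was lost without control 1 (adjusted p = 0.0932; 0.00248 to 0.0932 over all alternatives). In hnRNPKKD 11 rose (52.4%, beside 19.3%) and 4 fell (19%, beside 19.2%), with Adam12, an IGFBP-cleaving metalloprotease, up by 2.61 ± 0.25 (adjusted p = 5.64e-06), Timp3, a metalloprotease inhibitor, by 1.26 ± 0.09 (adjusted p = 1.14e-06), and Mmp3 down by -1.64 ± 0.11 (adjusted p = 4.54e-07). With lincP21 siRNA 4 rose (19%, beside 7.47%) and 0 fell (beside 4.39%) in lincP21KD, and 8 rose (38.1%, beside 17.2%) and 2 fell (9.52%, beside 11.8%) in hnRNPKKD. Adam12 rose in both, by 0.92 ± 0.13 (adjusted p = 0.00261) and 1.72 ± 0.25 (adjusted p = 0.000241). With hnRNPK siRNA 3 rose (14.3%, beside 14.1%) and 6 fell (28.6%, beside 12.8%), among them Pappa, which encodes the protease PAPP-A that cleaves IGFBP-4, by -1.17 ± 0.16 (adjusted p = 0.000227), and Timp3 rose by 1.20 ± 0.09 (adjusted p = 4.46e-06). The medians were 0.06, 0.17, 0.31, 0.16 and 0.03 in the same 5 comparisons.

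Igf2 and Igf2r are imprinted genes, and 17 of 20 other genes listed as imprinted growth genes were tested. Whether the listed genes are imprinted in these cells was not measured, and the list shares Dcn with the fibroblast markers. With AdenoCRE 2 rose (11.8%, beside 12.9% of all genes) and 6 fell (35.3%, beside 6.24%), with a median of -0.14 log2. Nnat, a membrane proteolipid, fell by 1.49 ± 0.11 (adjusted p = 0.000221), Mest by 1.18 ± 0.14 (adjusted p = 0.00206), and Peg3, a zinc finger protein, by 0.81 ± 0.13 (adjusted p = 0.00512). With p53 siRNA in lincP21KD 6 rose (35.3%, beside 7.01%) and 1 fell (5.88%, beside 5.74%), with a median of 0.17: Mest rose by 1.63 ± 0.07 (adjusted p = 1.38e-06), Nnat by 1.03 ± 0.11 (adjusted p = 0.000245) and Peg3 by 0.69 ± 0.09 (adjusted p = 0.000838). In hnRNPKKD 3 rose (17.6%, beside 19.3%) and 4 fell (23.5%, beside 19.2%) with p53 siRNA, with a median of 0.09, Mest rising by 0.76 ± 0.10 (adjusted p = 8.78e-05). Airn, a noncoding RNA transcribed from within Igf2r, changed by -0.65 ± 0.13 there (adjusted p = 0.00216), beside -0.42 for Igf2r. Airn is antisense to Igf2r and overlaps it, so its value is given as uncertain. With lincP21 siRNA 2 rose (11.8%, beside 7.47%) and 2 fell (11.8%, beside 4.39%) in lincP21KD, and 5 rose (29.4%, beside 17.2%) and 3 fell (17.6%, beside 11.8%) in hnRNPKKD, where Cdkn1c, a growth-limiting cyclin kinase inhibitor, rose by 1.47 ± 0.10 (adjusted p = 1.08e-06). With hnRNPK siRNA 4 rose (23.5%, beside 14.1%) and 2 fell (11.8%, beside 12.8%), Gatm rising by 1.98 ± 0.12 (adjusted p = 9.34e-07). The medians were -0.01, 0.07 and 0.13 in these 3 comparisons.

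Of the growth hormone axis, which drives Igf1 in liver, 6 of 8 genes were tested. With AdenoCRE 0 rose and 1 fell (beside 12.9% and 6.24% of all genes), Jak2, the receptor's kinase, by 0.54 ± 0.12 (adjusted p = 0.0166); this was lost without the 9 h pair (adjusted p = 0.0522; 0.011 to 0.0522 over all alternatives). With p53 siRNA 1 rose and 0 fell in lincP21KD (beside 7.01% and 5.74%), and 3 rose and 1 fell in hnRNPKKD (beside 19.3% and 19.2%). With lincP21 siRNA 2 rose and 0 fell in lincP21KD (beside 7.47% and 4.39%), and 5 rose and 0 fell in hnRNPKKD (beside 17.2% and 11.8%). With hnRNPK siRNA 3 rose and 0 fell (beside 14.1% and 12.8%). In hnRNPKKD the receptor Ghr rose by 0.76 ± 0.10 with p53 siRNA (adjusted p = 8.59e-05), 0.62 ± 0.10 with lincP21 siRNA (adjusted p = 0.000616) and 0.70 ± 0.10 with hnRNPK siRNA (adjusted p = 0.000302), which share their controls. The medians were 0.09 with AdenoCRE and 0.08, 0.16, 0.42, 0.61 and 0.32 in the 5 siRNA comparisons. Igf1 itself was called in none of these 6 comparisons with the probe set used. With its probe sets averaged, Igf1 was called lower with AdenoCRE and higher with p53 siRNA in hnRNPKKD (0.21, adjusted p = 0.0306). In the siRNA arrays the probe set used had 4.98 to 5.78, near the array medians (5.546 to 5.656 in lincP21KD, 4.832 to 4.914 in hnRNPKKD).

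Among related secreted proteins of the CCN family and others, 11 of 17 listed genes were tested, and with AdenoCRE 1 rose and 1 fell (beside 12.9% and 6.24% of all genes). Ccn3, a growth-limiting matrix protein, fell by 1.29 ± 0.11 (adjusted p = 0.000564), and it rose with p53 siRNA in lincP21KD by 1.00 ± 0.13 (adjusted p = 0.000938). There 3 rose and 2 fell (beside 7.01% and 5.74%), and in hnRNPKKD 5 rose and 2 fell with p53 siRNA (beside 19.3% and 19.2%). Ccn5 rose in both, by 0.99 ± 0.11 (adjusted p = 0.000498) and 2.27 ± 0.24 (adjusted p = 1.18e-05). With lincP21 siRNA 1 rose and 1 fell in lincP21KD (beside 7.47% and 4.39%), and 5 rose and 1 fell in hnRNPKKD (beside 17.2% and 11.8%). With hnRNPK siRNA 3 rose and 3 fell (beside 14.1% and 12.8%), Ccn3 rising by 0.91 ± 0.14 (adjusted p = 0.000516) and Ccn2, a matrix protein also known as CTGF, changing by -0.62 ± 0.10 (adjusted p = 0.000838). The medians were -0.04 with AdenoCRE and 0.13, 0.09, 0.23, 0.30 and -0.05 in the siRNA comparisons.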

How the data were processed

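RNA of mouse embryonic fibroblasts was measured on Affymetrix whole-genome mouse arrays. The authors deposited log2 values made by RMA, per the submitters' processing notes, with version not given in the sources used here. RMA normalizes arrays together, so levels were compared within an experiment only. Of 45101 probe sets, 34958 had 1 gene symbol, 932 several and 9211 none. The 40% of probe sets with the lowest mean were left out (limit 4.54 log2), leaving 12675 genes.

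Fits used limma 3.58.1 in R 4.3.3 with eBayes, and Benjamini-Hochberg adjustment over all tested genes. The virus effect had time as a block. Within a virus, the slope was taken per hour. Each siRNA was set against the control of its own experiment, with all groups in 1 fit.

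All 10 genes of the axis are named; from each list the called genes with the smallest p were eligible, up to 4 for a comparison, and Cdkn1a and Hnrnpk are named as checks. Genes of like pattern are the 3 with the highest Pearson correlation to each of the 3 members of largest SD. The members and lists were chosen with earlier results of these data known. Replicate numbers of the hnRNPK siRNA and control arrays went together (r = 0.22, 0.17 and 0.21 for their deviations from the group means), as seen in the data and not stated in the labels. The lincP21 siRNA in lincP21KD had r = 0.03 and 0.13, and p53 siRNA in hnRNPKKD had 0.36, 0.36 and -0.19. The remaining siRNA groups also had values below 0 in some pair. Arrays were all distinct (highest correlation 0.998). The alternatives were other filters, scalings, probe set summaries, moderation, array weights, a replicate block and leaving out arrays. The estimation of array weights gave convergence warnings in some fits, so results with array weights are less certain. The number of arrays limits the precision.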

Additional observations from a re-analysis of the deposited data

Results flagged for a closer look

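The effect of an siRNA differed between the experiments, by a test of the difference in a joint fit, for 4 results. The p53 siRNA effect was lower in hnRNPKKD than in lincP21KD by -0.67 log2 for Igfbp4, by -0.54 for Igf2 and by -0.49 for Igf2r. The lincP21 siRNA effect on Igfbp3 was higher in hnRNPKKD by 0.91 log2. In lincP21KD the lincP21 siRNA and control arrays had 5.31 to 5.87 for Igfbp3, near the array medians of 5.546 to 5.656. In hnRNPKKD they had 7.24 to 8.32, above array medians of 4.832 to 4.914. The part of this low signal in the Igfbp3 difference was not tested. The Igfbp4 difference was called in every alternative tried, while the Igf2, Igf2r and Igfbp3 differences were each lost in several. The second probe set of Igf2 gave a difference of 0.26, in the other direction, those of Igf2r and Igfbp3 gave -0.36 and 0.57, and the 5 others of Igfbp4 gave -0.91 to -0.25. The p53 siRNA array 2 of hnRNPKKD had the highest Cdkn1a of its group (11.41 against 10.52 and 10.61 in arrays 1 and 3). Without it, 6 p53 siRNA differences were called, 4 lower and 2 higher in hnRNPKKD. Igf1r and Igfbp3 were added as higher and Igfbp6 as lower. The part of this array in the differences was not tested otherwise.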

How the results depend on the processing

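Of 110 values for the 10 genes (10 in each of 11 comparisons), 35 were called; 18 of these kept their call in every alternative tried, 35 kept their sign and 0 reversed, and of the 75 others 21 were called in some alternative. The number of genes called with AdenoCRE was 5, against 8 with probe sets averaged and 3 to 5 with a time point left out. It was 7 with trend and robust moderation and 6 with array weights. The count of AdenoCRE slopes was 1, against 0 on log2 of hours, 2 with probe sets averaged and 0 to 1 with a time point left out. For p53 siRNA in lincP21KD it was 6, against 3 to 5 without 1 array, and 3 without either control. For lincP21 siRNA in lincP21KD it was 3, against 5 with array weights and 0 to 5 without 1 array. In hnRNPKKD it was 6, 6 and 4 for p53, lincP21 and hnRNPK siRNA, against 5 to 7, 5 to 6 and 3 to 4 without 1 array. With array weights these counts were 8, 7 and 6, and that for p53 siRNA in lincP21KD was 7. For the p53 siRNA difference it was 3, against 7 with array weights and 1 to 6 without 1 array. For the lincP21 siRNA difference it was 1, against 2 with array weights, 2 with probe sets averaged, 0 with quantile scaling and 0 to 1 without 1 array. With the replicate number as a block the counts were 6 and 4 for p53 and lincP21 siRNA in lincP21KD, 7, 6 and 4 in hnRNPKKD, and 2 and 1 for the differences; it changed no call for hnRNPK siRNA. It ended the calls of Igfbp7 with lincP21 siRNA in lincP21KD (0.28, adjusted p = 0.0552) and of the Igf2r difference for p53 siRNA (-0.46, adjusted p = 0.0508). It added Igf2 (0.37, adjusted p = 0.0415) and Igfbp2 (0.58, adjusted p = 0.0271) with lincP21 siRNA in lincP21KD, and Igfbp2 with p53 siRNA in hnRNPKKD (0.73, adjusted p = 0.0172). Apart from the hnRNPK siRNA, the correlation by number was near or below 0 in some pair, so whether the numbers pair these arrays was not settled. The cause of these changes was not tested. For the differences, the Igf2 adjusted p ran from 5.58e-05 to 0.496 (with probe sets averaged -0.14), that of Igf2r from 0.000784 to 0.126, and that of Igfbp3 from 0.00367 to 0.213 (without lincP21KD control 1, 0.73). Of 113 values for the named genes of the lists and the target genes, 86 kept their call in every alternative. Where a control of lincP21KD was left out, the lone control is assumed to vary like the other groups. The number of arrays limits the precision.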
